A study of Rattus norvegicus with 6 samples.

Results

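The genes described here control the balance between making and breaking down glucose in the liver. The set named 9 genes, and 8 of them were found by an exact match of their symbol among 33022 loci (32158 with a symbol). They were Pck1, Fbp1, Gckr, Pklr, Slc2a2, Pfkfb1, Pfkfb3 and Ppargc1a, each on a single locus. G6pc had no locus of its own and is described at the end through the merged locus that holds it. Expression was measured in male obesity-prone Sprague Dawley rats, a line that gains weight readily on rich food. All rats ate the control diet (CD) first, and then either stayed on it or changed to a Western diet (WD) rich in milk fat, sucrose and cholesterol for 2 weeks, after which they were fasted overnight and refed their own diet in the morning. Their age was not given in the sources used here. From each liver, total RNA and the RNA of a light sucrose gradient fraction (mRNAs with 3 or fewer ribosomes) and of a heavy fraction (4 or more ribosomes) were taken. Before sequencing, RNA of 3 rats was combined for each diet and RNA kind, giving 6 libraries with 1 per group, so no value has a replicate, and no test between diets was possible. In RNA of a whole liver, fewer cells of a type and less of an mRNA per cell cannot be told apart.

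Hepatocytes take up and release glucose through GLUT2, the product of Slc2a2. Gckr is a regulatory protein of the hepatocyte nucleus that takes part in the response to glucose and fructose. Glycolysis runs through steps controlled by fructose-2,6-bisphosphate, which is made and removed by the bifunctional enzymes of the Pfkfb family, and ends with liver pyruvate kinase (Pklr). Gluconeogenesis runs the other way around these steps, through phosphoenolpyruvate carboxykinase (Pck1), fructose-1,6-bisphosphatase (Fbp1) and glucose-6-phosphatase (G6pc), and the coactivator PGC-1α (Ppargc1a) raises its transcription during fasting. Glucagon acts on these genes through cAMP, and glucose acts on Pklr through the factor ChREBP (Mlxipl).

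Motifs of these response elements occurred in the promoters of 4 members, printed here to show the letters that such factors read. RefSeq promoters of the assembly GRCr8 (250 bases before and 50 after the start) were searched on both strands for 4 motifs, and all 9 named genes had a promoter there (G6pc as G6pc1). The motifs were the paired boxes of a carbohydrate response element (CACGNG and CNCGTG with 5 bases between them), the cAMP response element (TGACGTCA), its variant TTACGTCA, and the E-box CACGTG. The first is the type of site that ChREBP binds, the next pair are bound by CREB-like factors, and the E-box is bound by helix-loop-helix factors. None of the 4 matches overlapped another. In the 30-base windows below, capitals mark the match, and all are on the plus strand:
Pklr: gggcgcCACGGGGCACTCCCGTGgttcctg
Pck1: aggccggccccTTACGTCAgaggcgagcct
Ppargc1a: ctgcctcggagTGACGTCAggagtttgagc
Pfkfb3: cacccttctctcCACGTGaaagggggctgg
The windows lie at chr2:176841090-176841119 (Pklr), chr3:182348468-182348497 (Pck1), chr14:63634116-63634145 (Ppargc1a) and chr17:71944879-71944908 (Pfkfb3). The match began 168 bases before the start in Pklr, 93 in Pck1, 181 in Ppargc1a and 42 in Pfkfb3. Of 33469 promoters, 11 (0.0329%) held the carbohydrate response element, 612 (1.83%) the cAMP response element, 270 (0.807%) the variant and 2148 (6.42%) the E-box. These matches describe the letters only. Binding was not measured in these livers.

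Values are FPKM, that is, fragments per length of transcript scaled to the size of the library, so levels of different genes can be compared. The number of sequenced fragments behind a value could be inferred for 4 of the 8 members (Pck1, Fbp1, Pklr and Ppargc1a). For the other 4, each with 2 or 3 start sites in its locus, no whole numbers explained the values. Pklr, whose fragments could be inferred, also had 2 start sites. A 95% interval of a ratio is given where fragments are known (exact Clopper-Pearson, or the conditional odds ratio for ribosome density). It covers counting error only, without biological variation, since copies made by PCR were not marked by molecular identifiers and single rats were not sequenced. The typical depth was low, with a median of 8 to 13 fragments per locus in 5 libraries and 22 in the WD light fraction. That library also stood apart by its blood marker Hbb, at 242 FPKM compared with 0 to 13.9 FPKM in the others. The other blood markers found, Alas2 (7.18 FPKM) and Ptprc (2.11 FPKM), had their lowest values in that library. Hepatocyte markers were present throughout, with all 6 above 0 in every library and a sum of 42592 to 129086 FPKM. In total RNA, Ttr and Apoa1 were the 2 of these called lower in WD by the threshold used below. Markers of other liver cells were low (summed, 41.1 to 100.3 FPKM for Kupffer cells, 48.7 to 70.9 FPKM for sinusoidal endothelium, 42.2 to 75.9 FPKM for stellate cells, and 0 to 4.35 FPKM for cholangiocytes). In total RNA the Kupffer cell sum was 45.0 FPKM in CD and 64.5 FPKM in WD, and 3 of its 6 markers were at least 1.5-fold higher in WD (17.7% of all loci). The sums of sinusoidal endothelium (53.4 FPKM in CD and 70.9 FPKM in WD), stellate cells (42.2 and 51.8 FPKM) and cholangiocytes (0.694 and 4.35 FPKM) were also higher in WD. Each of these had 1 marker at least 1.5-fold higher, and the cholangiocyte sum in total RNA was that of Epcam alone. The sums of hepatocytes (82767 FPKM in CD and 74543 FPKM in WD) and blood cells (24.8 and 11.3 FPKM) were lower in WD. The lower blood cell sum came from Hbb (13.3 FPKM in CD and 0 in WD), while Alas2 (8.43 and 8.23 FPKM) and Ptprc (3.06 and 3.08 FPKM) differed little. The part of these shifts in the results below was not tested.

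Of the 8 members, 6 were well expressed and 2 were barely detected. In CD total RNA the order was Pck1 (258 FPKM), Fbp1 (141 FPKM), Slc2a2 (115 FPKM), Gckr (73.8 FPKM), Pklr (54.5 FPKM) and Pfkfb1 (39.3 FPKM), followed at a distance by Pfkfb3 (0.212 FPKM) and Ppargc1a (listed at 0). In WD total RNA the order was the same, except that Pfkfb3 and Ppargc1a were at 1.16 and 0.360 FPKM. Each value carries a lower and an upper bound from Cufflinks, and these bounds were wide. For Pck1 in CD total RNA they were 14.0 and 502 FPKM, which include the values of Fbp1, Slc2a2, Gckr, Pklr and Pfkfb1. By mean over the 6 libraries, Pck1 ranked 311 of the 10201 loci that had a symbol and averaged 1 FPKM or more, Slc2a2 ranked 434 and Fbp1 469. Gckr ranked 917, Pklr 1328, Pfkfb1 1500 and Pfkfb3 9932. Ppargc1a had a mean of 0.484 FPKM, below the minimum, so 7 members entered the counts below.

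**Figure D1:**
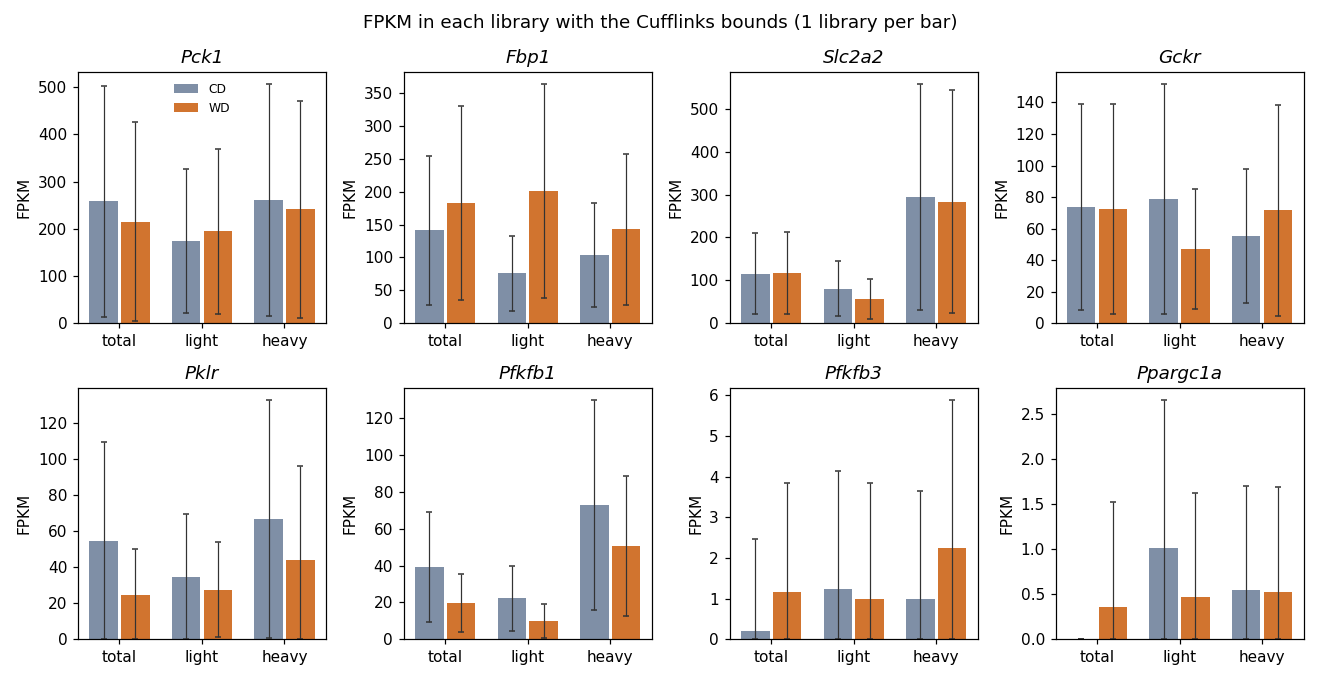
FPKM (y axis, linear from 0, a separate scale for each gene) of the 8 members in total RNA and in the light and heavy fractions, grey for CD and orange for WD. Each bar is 1 library and the error bars are the lower and upper bounds that Cufflinks gave, which overlapped between the diets for all 21 pairs of the 7 members compared.

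The first comparison asks how the diet changed mRNA abundance. In total RNA, Pklr and the bifunctional enzyme gene Pfkfb1 were lower in WD by about the same factor, Fbp1 was somewhat higher, and Pck1 was slightly lower. The glucose transporter Slc2a2 and the regulatory protein Gckr differed from their CD level by 2.09% and -1.93%. A ratio of WD to CD (after adding 0.1 FPKM) was called higher at 1.5 or more and lower at 0.75 or less. Of the 7 members, 1 was called higher (17.7% of all loci were) and 2 were called lower (22.7% of all loci), so the count of calls was close to that of any genes. Their median log2 change was -0.028, and that of all loci was 0.022.

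Pklr (chromosome 2, 188449209 to 188471988 in Rnor_6.0), the last step of glycolysis in hepatocytes, was at 54.5 FPKM in CD and 24.6 FPKM in WD total RNA. Behind these values were 95 and 41 fragments, a ratio of 0.451 (95% interval 0.305 to 0.657). In the light fraction it was at 34.4 FPKM in CD and 27.4 FPKM in WD, from 41 and 71 fragments, with a ratio of 0.796 (0.535 to 1.20). In the heavy fraction it was at 66.7 FPKM in CD and 44.0 FPKM in WD, from 74 and 50 fragments, with a ratio of 0.660 (0.451 to 0.957). Pklr was thus lower in WD in all 3 RNA kinds, as were 13.4% of all loci when no threshold was set, and the interval lay below 1 in total RNA and in the heavy fraction but included 1 in the light fraction. At this depth a difference in the light fraction was not detectable. Among the 4069 loci averaging 10 FPKM or more, 3.64% had a lower abundance change than Pklr.

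Pfkfb1 (chromosome X, 23092158 to 23144324) encodes the liver form of the enzyme that sets the level of fructose-2,6-bisphosphate. It was at 39.3 FPKM in CD and 19.9 FPKM in WD total RNA, a ratio of 0.506. In the light fraction it was at 22.2 FPKM in CD and 10.1 FPKM in WD (ratio 0.455), and in the heavy fraction at 72.7 FPKM in CD and 50.5 FPKM in WD (ratio 0.695). Pfkfb1 was the only member called lower in all 3 RNA kinds, a call that ended in the heavy fraction when the thresholds were set on CD over WD (ratio 1.44), and in total RNA and the heavy fraction at a symmetric 2-fold threshold. Of all loci, 2.52% were called so, and 2.24% of those averaging 10 FPKM or more. No fragment numbers were available, and the Cufflinks bounds of CD and WD overlapped in each RNA kind (9.46 to 69.1 FPKM against 4.06 to 35.7 FPKM in total RNA). Over the 6 libraries, the log2 levels of Pklr and Pfkfb1 varied together (Pearson r = 0.88). This value describes 6 libraries that share their rat pools and their gradients.

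Fbp1 (chromosome 17, 396179 to 417480) encodes the gluconeogenic enzyme that opposes phosphofructokinase. It was at 141 FPKM in CD and 183 FPKM in WD total RNA, from 202 and 251 fragments, a ratio of 1.30 (1.08 to 1.57). In the heavy fraction it was at 103 FPKM in CD and 143 FPKM in WD, from 94 and 133 fragments, a ratio of 1.38 (1.05 to 1.82). The light fraction differed most, with 75.7 FPKM in CD and 201 FPKM in WD, from 74 and 427 fragments, a ratio of 2.65 (2.07 to 3.44). Fbp1 was higher in WD in all 3 RNA kinds and its interval lay above 1 in each, although only the light fraction passed the 1.5-fold threshold. Of all loci, 13.4% were higher in WD in all 3 RNA kinds when no threshold was set.

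Pck1 (chromosome 3, 171213935 to 171219871), the enzyme that commits oxaloacetate to glucose production, varied least of the members over the 6 libraries, by a factor of 1.49 between its lowest and highest value. It was at 258 FPKM in CD and 215 FPKM in WD total RNA, from 238 and 190 fragments, a ratio of 0.835 (0.686 to 1.01). The light fraction held 174 FPKM in CD and 195 FPKM in WD (110 and 267 fragments, ratio 1.12, 0.891 to 1.41). The heavy fraction held 261 FPKM in CD and 241 FPKM in WD (153 and 145 fragments, ratio 0.925, 0.732 to 1.17). All 3 intervals included 1, so a difference between the diets was not detectable for Pck1 at this depth. In total RNA the ratio of Pck1 to Pklr levels was 4.73 in CD and 8.75 in WD. The ratio of Fbp1 to Pklr levels was 2.59 in CD and 7.46 in WD.

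Slc2a2 (chromosome 2, 114413409 to 114445395) was at 115 FPKM in CD and 117 FPKM in WD total RNA, and at 294 FPKM in CD and 283 FPKM in WD in the heavy fraction. Only the light fraction differed by more, with 80.0 FPKM in CD and 56.3 FPKM in WD, a ratio of 0.704. Gckr (chromosome 6, 26355295 to 26385761) was at 73.8 FPKM in CD and 72.3 FPKM in WD total RNA. Its fractions moved in opposite directions, from 78.7 FPKM in CD to 47.1 FPKM in WD in the light fraction (ratio 0.599) and from 55.0 FPKM in CD to 71.5 FPKM in WD in the heavy fraction (ratio 1.30). For Slc2a2 and Gckr the Cufflinks bounds of CD and WD overlapped in each RNA kind.

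**Figure D2:**
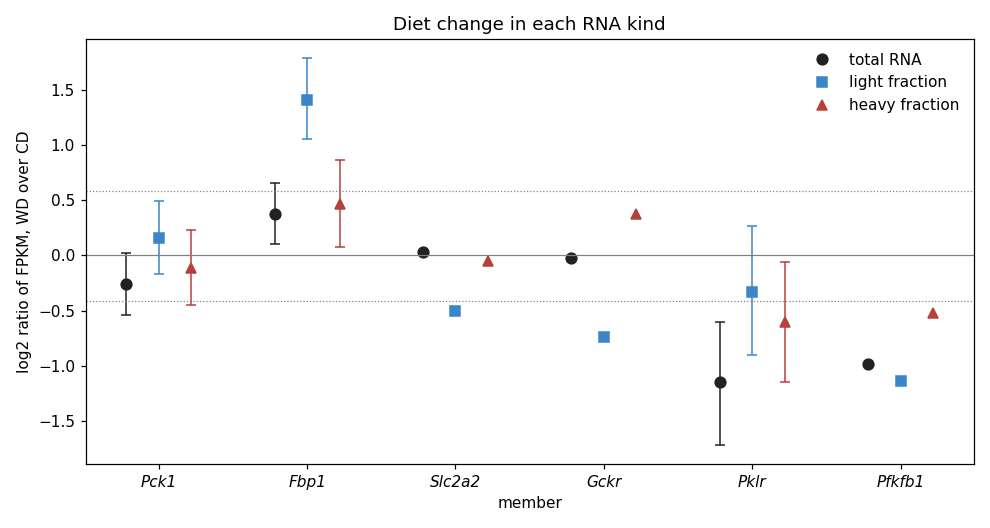
Log2 ratio of FPKM, WD over CD (y axis), for the 6 well-expressed members in total RNA (circles), the light fraction (squares) and the heavy fraction (triangles). Vertical bars are 95% counting intervals where fragments are known, dotted lines mark ratios of 1.5 and 0.75, and Pklr and Pfkfb1 lie below 0 in all 3 RNA kinds while Fbp1 lies above.

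The low members have to be read against the depth. Pfkfb3 (chromosome 17, 70684133 to 70713726) encodes a form of the bifunctional enzyme with high kinase activity that many dividing and immune cells use. It was between 0.212 and 2.24 FPKM in the 6 libraries, and every lower bound was 0. Its value was 0.212 FPKM in CD and 1.16 FPKM in WD total RNA, 1.24 and 1.00 FPKM in the light fraction, and 0.983 and 2.24 FPKM in the heavy fraction. In total RNA it was the member called higher, with a log2 change of 2.01 that became 0.83 after adding 1 FPKM and 2.40 after adding 0.01 FPKM. The upper bound in CD (2.46 FPKM) exceeded the value in WD. Pfkfb1 was 17.1 times as abundant as Pfkfb3 in WD total RNA, and between 10.1 and 185 times as abundant over the 6 libraries. Ppargc1a (chromosome 14, 63095719 to 63187009) had 7 fragments in all, 3 in CD and 4 in WD. It had 0 and 1 fragments in total RNA, 2 and 2 in the light fraction and 1 and 1 in the heavy fraction (CD and WD). A count of 0 allows up to 3 fragments, so no comparison of Ppargc1a between diets could be made.

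The diet comparison was repeated for each fraction. In the light fraction, 1 member was called higher (25.9% of all loci) and 3 were called lower (26.8% of all loci), with a median log2 change of -0.33 beside 0.017 for all loci. In the heavy fraction, 1 member was called higher (21.7% of all loci) and 2 lower (25.8% of all loci), with a median of -0.056 beside -0.015. Fbp1 was the member called higher in the light fraction and Pfkfb3 in the heavy fraction. Pfkfb3 averaged 1.14 FPKM and passed the minimum of 1 FPKM only through its WD heavy value (2.24 FPKM). Its calls that rest on this value are therefore favoured by the filter. They are this one and those below by the heavy to light ratio in WD and by ribosome density. Gckr, Slc2a2 and Pfkfb1 were called lower in the light fraction, and Pklr and Pfkfb1 in the heavy fraction.

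The members differed in their position on the gradient. The mRNAs of Slc2a2 and Pfkfb1 had at least 3 times the FPKM in the heavy fraction that they had in the light fraction on both diets, whereas those of Fbp1 and Gckr were closer to even. The ratio of heavy to light FPKM is relative, since the normalization between libraries fixes no absolute share, and its median over all loci was close to 1 in both diets (log2 0.012 in CD and 0 in WD). For Slc2a2 the ratio was 3.67 in CD and 5.02 in WD, and for Pfkfb1 it was 3.27 in CD and 5.00 in WD. On the log2 scale, 91.2% and 89.5% of all loci had a lower value than Slc2a2 and Pfkfb1 in CD, and 96.3% and 96.2% in WD. Pklr followed with 1.94 in CD (1.31 to 2.91) and 1.61 in WD (1.10 to 2.34), and Pck1 with 1.49 in CD (1.16 to 1.93) and 1.24 in WD (1.00 to 1.52). Fbp1 was at 1.36 in CD (0.995 to 1.88) and 0.710 in WD (0.580 to 0.865). Gckr was at 0.700 in CD and 1.52 in WD. In CD, 3 of the 7 members had a ratio of 1.5 or more (32.9% of all loci) and 1 a ratio of 0.75 or less (36.6%). In WD the counts were 5 (31.4% of all loci) and 1 (38.5%), and with each library rescaled to the same sum they were 6 (40.2%) and 0 (32.0%).

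**Figure D3:**
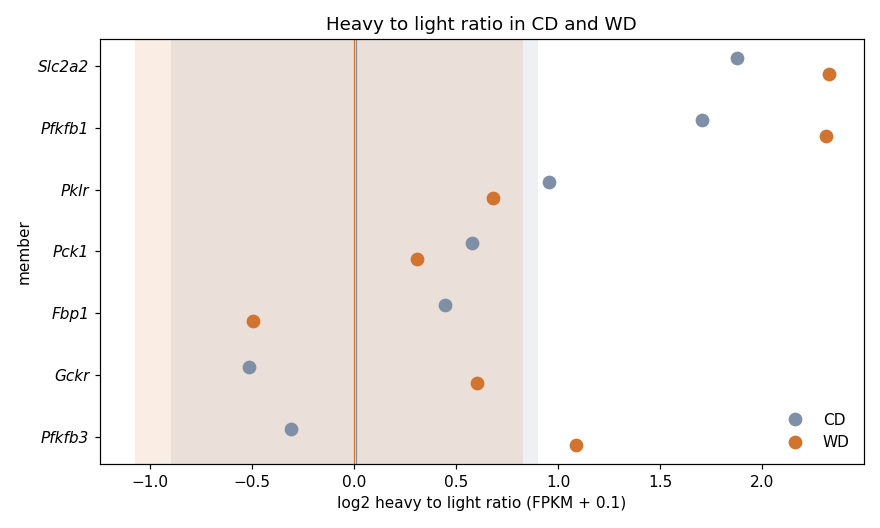
Log2 of heavy over light FPKM (x axis, after adding 0.1 FPKM) for the 7 members compared, grey for CD and orange for WD, 1 library per fraction and diet. Shaded bands show the middle 50% of all loci and vertical lines their median, and Slc2a2 and Pfkfb1 lie to the right of the bands on both diets.

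The change in ribosome density, that is, the heavy to light ratio in WD over that in CD, asks whether the diet moved an mRNA along the gradient. Gckr, Pfkfb1 and Pfkfb3 were called higher in WD and Fbp1 lower, and Pck1, Pklr and Slc2a2 were neither. With the same thresholds set on CD over WD, Slc2a2 was called higher in WD as well (ratio of CD to WD 0.732). These were 3 of 7 members (27.7% of all loci) and 1 of 7 (36.1% of all loci), and the median log2 change was 0.45 beside -0.021 for all loci. The ratio was 2.17 for Gckr, 1.53 for Pfkfb1 and 1.37 for Slc2a2. For Fbp1 it was 0.520 (0.357 to 0.760), with an interval below 1. For Pck1 it was 0.829 (0.596 to 1.15) and for Pklr 0.828 (0.473 to 1.45), so for these mRNAs a difference in density was not detectable. For Pfkfb3 the log2 change was 1.40. Of the 6 libraries, the light fractions held the lowest (CD) and the highest (WD) Fbp1 level. With total RNA as the denominator of the heavy fraction, 5 of the 7 members had a log2 change of the opposite sign. These were Fbp1 (0.088), Pfkfb3 (-0.90), Pklr (0.55), Pck1 (0.15) and Slc2a2 (-0.086). The changes of Gckr (0.40) and Pfkfb1 (0.46) kept their sign but missed the threshold.

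The other genes of the pathway give the setting. Of 26 listed genes of glycolysis and hexose entry, 19 averaged 1 FPKM or more, of which 2 were called higher (17.7% of all loci) and 7 lower (22.7%) in WD total RNA. The genes named below from this and the next lists averaged 10 FPKM or more, unless said otherwise, and an order among them holds for such genes only. Over the 19 genes averaging 1 FPKM or more, the median log2 abundance change was -0.15 beside 0.022 for all loci. Ketohexokinase (Khk), the entry point of fructose, went from 68.3 to 45.4 FPKM (96 and 61 fragments, 95% interval of the ratio 0.474 to 0.925). Aldoa was at 23.8 FPKM in CD and 16.1 FPKM in WD, from 31 and 20 fragments, and its interval (0.364 to 1.22) included 1. At this level, the abundance change was 0.17 for Gpi and 0.0015 for Pgam1, and the 2 genes called higher, named after their values were seen, were Ldhb and Slc2a1, which averaged 2.09 and 1.78 FPKM.

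In ribosome density, 5 of these 19 genes were called higher (27.7% of all loci) and 8 lower (36.1%). At 10 FPKM or more, the lowest changes were those of lactate dehydrogenase Ldha (-1.95, 95% interval of the ratio 0.203 to 0.328), Gapdh (-1.56, 0.115 to 0.887) and Khk (-0.97, 0.315 to 0.825). As with Fbp1, the light fraction differed most for these mRNAs. Ldha was at 110 FPKM in CD and 325 FPKM in WD there, and at 480 and 367 FPKM in the heavy fraction. The highest density changes at that level were those of Pgk1 (1.20), Gpi (0.93, 1.31 to 2.78) and the lactate carrier Slc16a1 (0.23, 0.770 to 1.80).

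Of 21 listed gluconeogenic enzymes and carriers, 20 were found and 17 were compared. None was called higher in WD total RNA (17.7% of all loci) and 5 were called lower (22.7%), with a median of -0.22 beside 0.022 for all loci. In the light fraction 9 of the 17 were called lower (26.8% of all loci) and in the heavy fraction 3 (25.8%), and none was called higher in either (25.9% and 21.7%). The alanine aminotransferase Gpt, which feeds alanine carbon into glucose, was lowest, from 40.9 FPKM in CD to 17.8 FPKM in WD (72 and 30 fragments, 0.275 to 0.676). The mitochondrial pyruvate carrier subunit Mpc1 (-0.52, 0.328 to 1.44) and pyruvate carboxylase Pc (313 FPKM in CD and 228 FPKM in WD) followed. At the other end, the glycerol channel Aqp9 had a log2 change of 0.41 from 62 and 79 fragments (0.943 to 1.89), Got1 of 0.064 and Slc25a13 of 0.036. In ribosome density 4 were called higher (27.7% of all loci) and 1 lower (36.1%). At 10 FPKM or more, Mpc2 (0.95, 1.38 to 2.71), Mpc1 (0.64, 0.874 to 2.79) and Mdh1 (0.57, 0.954 to 2.32) had the highest changes, and Gpt (-1.06, 0.232 to 0.973), Got2 (-0.26, 0.656 to 1.06) and Slc25a13 (-0.21, 0.663 to 1.13) the lowest.

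Of 38 listed regulators, 37 were compared, of which 5 were called higher (17.7% of all loci) and 8 lower (22.7%) in WD total RNA, with a median of 0.089 beside 0.022, so these shares were close to those of all loci. Onecut1, a liver transcription factor first known for binding the Pfkfb1 gene, had the lowest value. It went from 83.1 FPKM in CD to 24.4 FPKM in WD total RNA (203 and 57 fragments, 0.215 to 0.396), from 82.6 to 26.4 FPKM in the light fraction and from 19.9 to 6.28 FPKM in the heavy fraction. Onecut1, Trib1, Pdk4 and Foxa2 were the 4 regulators called lower in all 3 RNA kinds (2.52% of all loci). Foxa2, which averaged 5.01 FPKM, was singled out for this after its values were seen, and it had 17 and 5 fragments in total RNA. Trib1, a pseudokinase that lowers lipogenic transcription factors, had an abundance change of -1.03 (0.296 to 0.781) and Pdk4, which restrains pyruvate oxidation in fasting, of -0.91 (0.328 to 0.846). Mlxipl, which encodes ChREBP, was the regulator called higher in all 3 RNA kinds (2.23% of all loci were). Its log2 change in total RNA (0.60) only just passed the threshold, and no fragment numbers were available for it. Mlxipl was at 12.8 FPKM in CD and 19.4 FPKM in WD total RNA, 7.46 and 13.6 FPKM in the light fraction and 12.9 and 26.4 FPKM in the heavy fraction. Pklr, whose promoter holds the carbohydrate response element letters, was lower in WD, and a link between these mRNAs was not tested. Klf15 (0.68, 1.05 to 2.51) and Foxo1 (0.64, 0.931 to 2.68), regulators that promote gluconeogenesis, had the other high abundance changes at 10 FPKM or more. In ribosome density, 11 regulators were called higher (27.7% of all loci) and 10 lower (36.1%). At 10 FPKM or more, Trib1 (1.68, 1.34 to 7.76), the glucagon receptor Gcgr (1.31) and tyrosine aminotransferase Tat (0.95, 1.54 to 2.44) were highest, and Foxo1 (-0.99, 0.216 to 1.14), Irs1 (-0.75, 0.324 to 1.07) and Nr3c1 (-0.70, 0.423 to 0.898) lowest. These lists were assembled from general knowledge with earlier results of the data known, so nothing particular to a list is read from its counts.

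**Figure D4:**
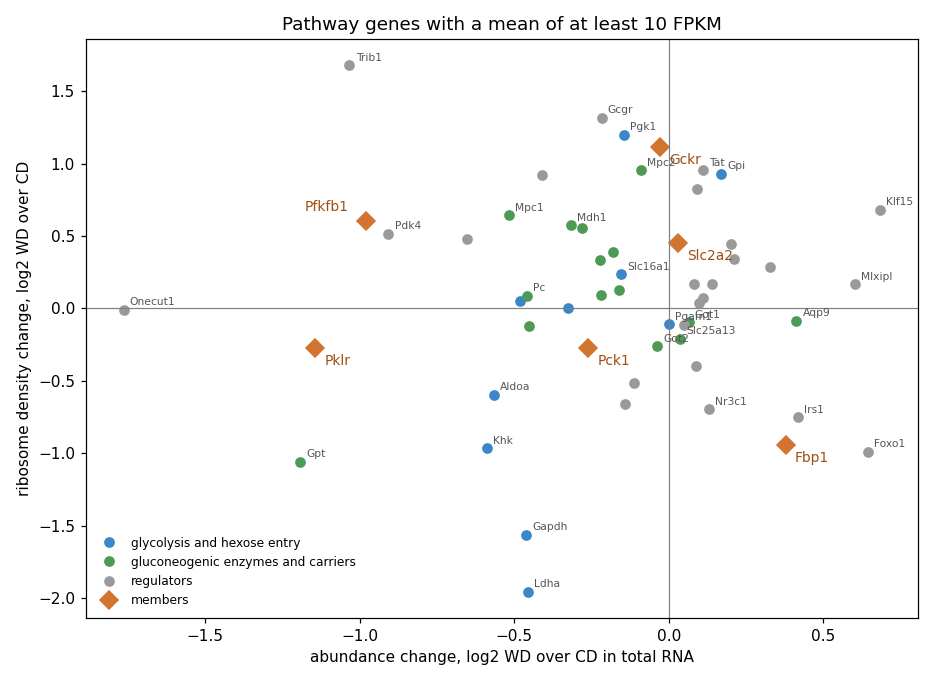
Log2 abundance change in total RNA (x axis) against log2 ribosome density change (y axis), WD over CD, for the 6 well-expressed members (diamonds) and the listed pathway genes reported here that averaged 10 FPKM or more (circles, coloured by list). Pklr and Pfkfb1 lie to the left with Gpt, Trib1, Pdk4 and Onecut1, and Fbp1 lies to the lower right near Foxo1.

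G6pc, the last step of glucose release, could not be measured by itself. Cufflinks merged it with Aoc3 and Rn60_10_0892.1 into 1 locus with 4 start sites (chromosome 10, 89236255 to 89311138). That locus was at 198 FPKM in CD and 251 FPKM in WD total RNA, 221 and 279 FPKM in the light fraction, and 423 and 493 FPKM in the heavy fraction. It was higher in WD in all 3 RNA kinds, by a ratio of 1.26 in total RNA and in the light fraction and 1.17 in the heavy fraction, and no ratio passed the threshold. The share of G6pc in these values is not known, and the locus was not counted among the members.

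The loci whose log2 levels were most like a member over the 6 libraries were found among 3805 loci that averaged 10 FPKM or more and had a unique symbol. Slc2a2 was most like Upf1 (Pearson r = 0.999) and Tomm40 (0.998), and 263 loci exceeded an r of 0.95 with it. Pfkfb1 was most like Aox4 (0.992) and Vnn1 (0.985), Pklr like Mpst (0.972) and Gstp1 (0.969), Pck1 like Suox (0.990) and Sts (0.983), and Gckr like Pigt (0.988) and Nit1 (0.984). Fbp1 was most like LOC100361444 (0.970) and the histone gene Hist1h1c (0.956), with 2 loci above 0.95. Pfkfb3 was most like Znf740 (0.974) and AC128962.1 (0.961), and Ppargc1a, with its 7 fragments, like Rpl13 (0.954) and Coa3 (0.953). Within the set, Pfkfb1 was the nearest member to Slc2a2 (0.916), Pklr (0.884), Pck1 (0.779) and Gckr (0.256), while Fbp1 correlated negatively with Pklr (-0.46), Pfkfb1 (-0.45), Gckr (-0.41) and Slc2a2 (-0.22). With 6 libraries that share rat pools, these values only describe the profiles.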

How the data were processed

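Total RNA and light and heavy gradient fraction RNA from livers of CD and WD rats were sequenced after removal of ribosomal RNA, with 1 library of 3 pooled rats per group. Per the labels and the paper's methods, the authors used bcl2fastq, TopHat against the assembly Rnor_6.0, and deposited FPKM values with lower and upper bounds from the Cufflinks and Cuffnorm pipeline, normalized between libraries. The annotation was not given in the sources used here. The methods also describe discarding rRNA alignments and keeping perfect matches for ribosome profiling, and it is not clear whether that was applied to the fractions.

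Members were taken by exact symbol. The 10201 loci compared carried a symbol and the OK status and averaged 1 FPKM or more. Log2 changes were computed after adding 0.1 FPKM, which understates changes of low genes, and a ratio is that of the deposited FPKM values. Ratios of at least 1.5 and at most 0.75, were used for all measures as WD over CD. The study's methods set these thresholds for ribosome density as CD over WD, which was added as an alternative after seeing the data. The DEGseq and anota tests named in the methods were not rerun, since 1 library per group allows no test. Fragment numbers were inferred as whole numbers (within 0.01) that a factor per library and a step per gene explain, for 10884 of the 13283 genes measured above 0 in more than 1 library. They are estimates, and multiples would give the same FPKM. The inference and the changes were tested on simulated data. These were made from genes that already had fragment numbers, with the same model of whole numbers, a factor and a step. The simulation therefore does not cover genes for which no numbers were found. Named genes are the members, the 3 highest and 3 lowest abundance and density changes of each list averaging 10 FPKM or more, and the 2 nearest profiles of each member. Some listed genes that entered the counts are not reported here. Members, lists and motifs were chosen with earlier results of these data known. Alternatives were other pseudocounts, filters, scalings, a 2-fold threshold and the heavy fraction over total RNA. Python 3.11.15, numpy 2.4.6, pandas 2.3.3, scipy 1.17.1 and matplotlib 3.10.9 were used.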

Additional observations from a re-analysis of the deposited data

Results flagged for a closer look

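In 2 members the light and the heavy fraction moved in opposite directions with the diet, and the ribosome density change was past the threshold. For Gckr the log2 diet change was -0.74 in the light and 0.38 in the heavy fraction, a ribosome density change of 1.12. For Pfkfb3 it was -0.29 in the light and 1.11 in the heavy fraction, a ribosome density change of 1.40, at levels of 0.983 to 2.24 FPKM. With 1 library per group, these differences between the fractions were not tested. Every Cufflinks lower bound of Pfkfb3 was 0. Dividing its heavy fraction by total RNA, instead of by the light fraction, gave a log2 change of -0.90. In a separate group of Sprague Dawley rats, the paper measured Pfkfb3 by quantitative PCR. There, refeeding shifted its mRNA into the heavy fraction less on WD than on CD, the opposite direction to the change of 1.40. The measures differ, since the paper's is a shift from fasted to refed rats and the 1.40 compares refed rats only. In the same rats the paper found no significant effect of diet on Pfkfb3 abundance.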

How the results depend on the processing

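Of 255 recomputed changes of single members, 249 stayed within their counting interval or within 1.5-fold of the reported value, 4 moved further and 2 called values turned direction. The 249 include the filters and the 2-fold threshold, which leave the value of a single member unchanged and so could not move it. Counting values that were not called, 9 changed sign, 5 of them with the heavy fraction over total RNA and 4 with the same-sum rescaling. The abundance calls of Pklr, Pfkfb1 and Pfkfb3 held under all pseudocounts and scalings tried, although the value of Pfkfb3 ranged from 0.83 to 2.40 with the pseudocount. With the heavy fraction over total RNA, 1 member was called by ribosome density (57.8% of all loci) in place of 4 (63.9%). The change of Fbp1 turned to 0.088 and that of Pfkfb3 to -0.90, with the cause not tested. A symmetric 2-fold threshold left 2 of 7 members called by abundance (18.5% of all loci), where Pfkfb1 lost its call. It left 2 called in the light fraction (26.7% of all loci), 1 in the heavy fraction (24.6%) and 2 by ribosome density (40.3%). By the heavy to light ratio it left 2 called in CD (46.8% of all loci) and 3 in WD (47.3%). Rescaling each library to the same sum over loci with a symbol shifted the median of all loci to 0.12 for abundance, -0.29 for the light fraction, 0.26 for the heavy to light ratio in WD and 0.28 for ribosome density. Under it, 17.4% of loci were called higher and 44.1% lower in the light fraction (25.9% and 26.8% as deposited) and 38.0% and 27.2% by ribosome density (27.7% and 36.1% as deposited), and Pklr (-0.68) and Pfkfb3 (-0.61) were then called lower in the light fraction and Slc2a2 (0.78) higher by ribosome density. The same rescaling also turned Gckr abundance (0.068), the light fraction change of Pck1 (-0.19) and the density changes of Pck1 (0.058) and Pklr (0.056). It made the calls of the heavy to light ratio in WD 6 higher (40.2% of all loci) and 0 lower (32.0%). Median-of-ratios scaling made the latter 4 (29.0%) and 1 (41.3%). Thresholds on CD over WD, chosen after seeing the data, ended the light call of Slc2a2 and the heavy call of Pfkfb1 and added Fbp1 in the heavy fraction and Slc2a2 by density, with 32.9% of loci then called higher and 30.9% lower by density. A pseudocount of 1 FPKM ended the density call of Pfkfb1 (0.55). No paired analysis was possible because each group held 1 library. Depth limits Pfkfb3 and Ppargc1a most.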

Other observations

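Markers of the liver zones were listed because gluconeogenesis is stronger around the portal vein and glycolysis around the central vein. In total RNA the summed level of 6 periportal markers was 399 FPKM in CD and 355 FPKM in WD, and that of 6 pericentral markers was 1746 FPKM in CD and 1961 FPKM in WD. In the light fraction the order was the other way, with 192 and 299 FPKM for the periportal and 1372 and 1230 FPKM for the pericentral markers. Cyp2e1 made up most of the pericentral sum (1357 FPKM in CD and 1533 FPKM in WD total RNA), while Glul was at 135 FPKM in CD and 119 FPKM in WD. In total RNA no periportal marker was called higher or lower, and 1 pericentral marker, Slc1a2, was called lower. Sds, a periportal enzyme of serine breakdown, was listed at 0 in 5 of the 6 libraries.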
